A study of Mus musculus with 12 samples.

Results

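The genes examined encode the receptors for the monoamines serotonin, dopamine and noradrenaline, the muscarinic receptors for acetylcholine, and the histamine receptors. They were chosen by gene symbol, as every Ensembl gene whose symbol starts with Htr, Drd, Adra, Adrb, Chrm or Hrh followed by a digit, which gave 37 of the 31208 genes in the table. No measured value entered that rule, but the family itself was picked with earlier results of these data known. By transmitter, 14 genes encode serotonin receptors, 9 encode receptors for noradrenaline and adrenaline, 5 encode dopamine receptors, 5 encode muscarinic receptors and 4 encode histamine receptors.

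RNA was taken from the brain of 12 male C57BL/6 mice aged 8 weeks, and full-length cDNA amplified by PCR was sequenced as long nanopore reads. The sham group had 4 mice. The vehicle group had 4 mice with cerebral ischemia of 6 h (left middle cerebral artery blocked by a filament) after a vehicle injection into the cerebral ventricle. The lactate group had 4 mice with the same ischemia after an injection of lactate (D-lactate in the methods of the study) by the same route, given before surgery in both ischemic groups. Whether sham mice were injected, and which brain region was taken, is not given in the sources used here. The labels describe each group in quadruplicate, and p-values measure the spread between these mice.

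Nearly all of these receptors are G protein-coupled receptors of the cell surface. The D1 receptor (Drd1), beta adrenergic receptors, Htr7 and Hrh2 act mainly through Gs, which raises cyclic AMP. Drd2, alpha-2 adrenergic receptors, the serotonin 1 family, Chrm2, Chrm4 and Hrh3 act mainly through Gi/o, which lowers it, while Chrm1, Chrm3, alpha-1 adrenergic receptors, the serotonin 2 family and Hrh1 act through Gq and calcium. Htr3a and Htr3b are the exception, since they form an ion channel. The neurons that release monoamines have their cell bodies mainly in the brainstem, midbrain and hypothalamus and send axons throughout the forebrain, so that a forebrain sample holds the receptors but few of the releasing cells.

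Total counts ranged from 7363426 to 8971103 in sham mice, from 6815920 to 10677224 in vehicle mice and from 7395179 to 8624354 in lactate mice, so that 3 counts, taken as the limit of detection, stood for 0.281 to 0.440 CPM (the usual scale on which a count is divided by the total of its mouse). Intervals and limits from counts cover counting error only. Summed markers of neurons were at 3981 to 4151 CPM in sham, 3267 to 5219 CPM in vehicle and 3564 to 3953 CPM in lactate mice, and 0 of the 7 neuron markers had an unadjusted P under 0.05 in any of the 3 comparisons, by edgeR or by DESeq2. Markers of neurons that make monoamines were low, with 3 of 5 genes at 3 counts or fewer in every mouse and sums of at most 5.24 CPM. Th, the best detected of them, was at 0.396 to 4.79 CPM. Those of cholinergic neurons summed to at most 1.74 CPM. Summed markers of striatal projection neurons were lowest in a pair of vehicle mice. The 8 genes summed to 461 to 750 CPM in sham and 799 to 915 CPM in lactate mice, but to 697, 314, 939 and 344 CPM in vehicle mice 1 to 4. Without Ppp1r1b, which encodes the striatal phosphoprotein DARPP-32, vehicle mouse 2 was at 171 CPM and still stood apart. Vehicle mouse 4, at 227.3 CPM, then lay beside sham mouse 3, at 226.7 CPM. Vehicle mouse 2 also held choroid plexus RNA, with Ttr at 1817 CPM against 0.815 to 16.2 CPM in the other mice. Bulk RNA cannot tell fewer cells of a type from less RNA per cell.

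Of the 37 receptor genes, 24 were tested in each of the 3 comparisons, having reached a CPM of 1 in 4 or more of the 8 mice compared, and the same 24 were above 3 counts in all 12 mice. These were 8 serotonin, 7 adrenergic, 2 dopamine, 4 muscarinic and 3 histamine receptor genes. The other 13 included Htr1d, Htr2b, Htr3b, Htr4, Htr5b, Htr6, Drd3, Drd4, Drd5, Chrm5 and Hrh4, and 6 of the 13 never exceeded 3 counts in any mouse. Hrh4, a histamine receptor of blood cells, had 0 counts in all 12 mice, which allows up to 3 counts per mouse. Drd3, the dopamine receptor of the ventral striatum, had 1 count in vehicle mouse 3 and 0 in the other mice. These 13 genes were too low for the main test, and those called once the filter on low counts was removed are given further on.

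Through the comparison of each ischemic group with sham, the question was which receptors changed after 6 h of ischemia, and through the comparison of lactate with vehicle, whether lactate given beforehand altered them. A gene was called when the unadjusted P value of edgeR was under 0.05 and the fold change at least 1.5, and Benjamini-Hochberg adjusted P values over all genes tested are given beside. Both comparisons with sham use the same 4 sham mice.

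The genes with an adjusted P value under 0.05 are shown first by their promoters, since they lay together in 1 comparison. They belong to the muscarinic and the adrenergic receptors. They are Chrm4, Adrb1, Adra1b and Chrm1, at chr2:91927249-91928688 (plus strand), chr19:56722199-56733113 (plus strand), chr11:43774606-43901210 (minus strand) and chr19:8663789-8683587 (plus strand) on GRCm38. The sequences run 5′ to 3′ over 300 bases, from 250 before to 50 after each RefSeq start (GRCm38.p6), where 28 of the 37 receptor genes, not including Chrm1, had an entry. Capitals mark matches on either strand to 5 motifs searched by their letters: the cyclic AMP response element (TGACGTCA), AP-1 (TGANTCA), the HIF core (ACGTG), the GC box (GGGCGG) and Egr (GCGTGGGCG, which a GC box can overlap). The windows lie at chr2:91921939-91922238 (Chrm4, plus strand, upstream of the gene model above), chr19:56721867-56722166 (Adrb1, plus strand, also upstream of its gene model), chr11:43901188-43901487 (Adra1b window 1, minus strand) and chr11:43836440-43836739 (Adra1b window 2, minus strand).
Chrm4: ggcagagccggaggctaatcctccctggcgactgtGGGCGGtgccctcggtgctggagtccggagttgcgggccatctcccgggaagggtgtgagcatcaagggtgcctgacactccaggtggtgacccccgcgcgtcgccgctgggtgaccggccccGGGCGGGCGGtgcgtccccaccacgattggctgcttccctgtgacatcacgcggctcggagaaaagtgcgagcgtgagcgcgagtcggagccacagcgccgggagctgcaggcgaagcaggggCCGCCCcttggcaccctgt
Adrb1: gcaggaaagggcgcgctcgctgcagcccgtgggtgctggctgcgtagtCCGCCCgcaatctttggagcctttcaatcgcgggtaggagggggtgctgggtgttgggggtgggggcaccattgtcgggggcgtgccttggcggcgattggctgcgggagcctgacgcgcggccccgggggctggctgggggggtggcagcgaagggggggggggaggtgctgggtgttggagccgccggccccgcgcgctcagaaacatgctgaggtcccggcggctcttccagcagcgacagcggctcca
Adra1b window 1: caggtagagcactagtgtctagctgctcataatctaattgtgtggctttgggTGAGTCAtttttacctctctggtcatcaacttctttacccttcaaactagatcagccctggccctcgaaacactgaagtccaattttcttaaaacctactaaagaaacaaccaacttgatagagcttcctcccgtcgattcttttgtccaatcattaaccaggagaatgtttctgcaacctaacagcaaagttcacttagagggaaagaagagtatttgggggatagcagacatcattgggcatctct
Adra1b window 2: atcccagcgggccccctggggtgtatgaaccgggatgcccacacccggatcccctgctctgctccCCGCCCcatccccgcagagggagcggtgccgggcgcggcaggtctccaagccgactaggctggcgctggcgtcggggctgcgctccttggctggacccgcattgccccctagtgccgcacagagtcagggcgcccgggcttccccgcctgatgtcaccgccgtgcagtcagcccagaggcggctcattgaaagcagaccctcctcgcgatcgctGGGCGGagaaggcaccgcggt

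The Chrm4 window held 4 GC boxes (a pair of them overlapping), that of Adrb1 held 1, and the second window of Adra1b held 2. The first window of Adra1b held 1 AP-1 match, which starts at position -198 from the gene start. Of all 32544 promoter windows of this length, 35.9% held a GC box, 7.79% an AP-1 match, 19.7% the HIF core, 1.80% the cyclic AMP response element and 0.618% the Egr motif. The G and C content was 70.7% for Chrm4, 72.3% for Adrb1, and 42.3% and 71.3% for the Adra1b windows, against a median of 53% over all windows. A match describes these letters only.

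In lactate mice, the receptors that differed from sham were Chrm4 and Adrb1, which fell, and Adra1b, which rose. Chrm4 encodes the M4 muscarinic receptor, a Gi/o-coupled receptor abundant on striatal projection neurons of the D1 type and on cholinergic terminals. Its level was 4.48, 5.46, 5.98 and 5.18 CPM in sham mice 1 to 4 and 2.84, 2.63, 2.77 and 2.20 CPM in lactate mice 1 to 4. Every lactate mouse was below every sham mouse, and the lactate mice lay close together, with a mean of 2.61 ± 0.285 CPM (SD, n = 4) against 5.28 ± 0.622 CPM (SD, n = 4). The difference was -0.98 on the log2 scale (SE 0.23), with adjusted P = 0.0131 in edgeR. The call held without each mouse in turn, but with all 12 mice in one fit the adjusted P was 0.0951, in a range from 0.00999 to 0.0951 over the 15 alternatives.

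Adrb1 encodes the beta-1 adrenergic receptor, the main cyclic AMP-raising noradrenaline receptor of forebrain neurons. Its level was 2.24, 2.90, 2.72 and 3.45 CPM in sham mice and 1.22, 1.56, 0.923 and 0.580 CPM in lactate mice. Again the groups did not overlap, although few reads lay behind the values, with 17 to 28 counts in sham mice and 5 to 13 counts in lactate mice. The difference was -1.37 on the log2 scale (SE 0.34), a 2.58-fold lower level, with adjusted P = 0.0189 in edgeR. The adjusted P was 0.0540 without sham mouse 4 and 0.0516 without lactate mouse 3, in a range from 0.0163 to 0.0540 over the alternatives, and the gene was called in all 15.

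Adra1b encodes the alpha-1B adrenergic receptor, which acts through Gq. Its level was 9.23, 12.9, 14.9 and 13.4 CPM in sham mice and 20.0, 21.3, 16.1 and 18.3 CPM in lactate mice. The lowest lactate mouse was above the highest sham mouse by about 1 CPM. The difference was 0.61 on the log2 scale (SE 0.18), a 1.53-fold higher level, with adjusted P = 0.0391 in edgeR. The fold was close to the limit of 1.5, so that the call was lost without sham mouse 1 (0.48), without lactate mouse 1 (0.58), without lactate mouse 2 (0.56) and with no filter on low counts (0.56 on the log2 scale). The adjusted P ranged from 0.0178 to 0.0973 over the alternatives, and among the fits that left out 1 mouse it was under 0.05 only without lactate mouse 3 (0.0428). Vehicle mice were at 21.7, 14.6, 18.3 and 10.9 CPM, so that mice 1 and 3 lay above all sham mice and mice 2 and 4 within the sham range. Their difference from sham was 0.41 (SE 0.24, adjusted P = 0.478, edgeR), and 0.72 and called without vehicle mice 2 and 4 (adjusted P = 0.207). That fit was added after the striatal markers had been seen. Lactate mice differed from vehicle mice by 0.18 (SE 0.22, adjusted P = 0.840, edgeR).

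Chrm1 encodes the M1 muscarinic receptor, the Gq-coupled receptor of cortical, hippocampal and striatal neurons. Its level was 70.9, 52.4, 53.9 and 65.0 CPM in sham mice, 55.2, 35.7, 46.2 and 41.7 CPM in vehicle mice, and 44.6, 33.9, 38.4 and 44.8 CPM in lactate mice. Every lactate mouse was below every sham mouse, while vehicle mouse 1 lay within the sham range. The difference from sham was -0.55 in lactate mice (SE 0.14, adjusted P = 0.0183, edgeR) and -0.40 in vehicle mice (SE 0.17, adjusted P = 0.311, edgeR), both on the log2 scale and both short of the fold limit. For the lactate mice the adjusted P ranged from 0.00302 to 0.0553 over the alternatives. It was above 0.05 without sham mouse 1 (0.0553), sham mouse 4 (0.0543), lactate mouse 2 (0.0539) or lactate mouse 3 (0.0545). The fold passed the limit without sham mouse 2 or 3, without lactate mouse 1 or 4, and with no filter on low counts (-0.60 on the log2 scale). In vehicle mice the difference was -0.19 without vehicle mice 2 and 4. Markers of cortical and hippocampal excitatory neurons, which also carry Chrm1, moved in part with it. Their 7 genes summed to 368 to 463 CPM in sham, 337 to 605 CPM in vehicle and 364 to 508 CPM in lactate mice, so that the groups overlapped, but Slc17a7 alone made up 266 to 512 CPM of these sums. Of the single markers, 2 of 7 were called lower in lactate against sham mice and 1 in vehicle against sham, and 5 of 7 had negative differences in both comparisons. Rorb, a transcription factor of cortical neurons, fell from 19.7 to 28.1 CPM in sham to 10.7 to 17.5 CPM in lactate mice (-0.74 on the log2 scale, SE 0.18, adjusted P = 0.0172, edgeR) and to 12.8 to 18.6 CPM in vehicle mice (-0.72, SE 0.19, adjusted P = 0.0966, edgeR). Neurod6, another neuronal transcription factor, was at 15.3 to 20.4 CPM in sham and 5.03 to 14.3 CPM in lactate mice (-0.68, SE 0.25, adjusted P = 0.0914, edgeR). The part of these cells in the Chrm1 difference was not tested.

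**Figure D1:**
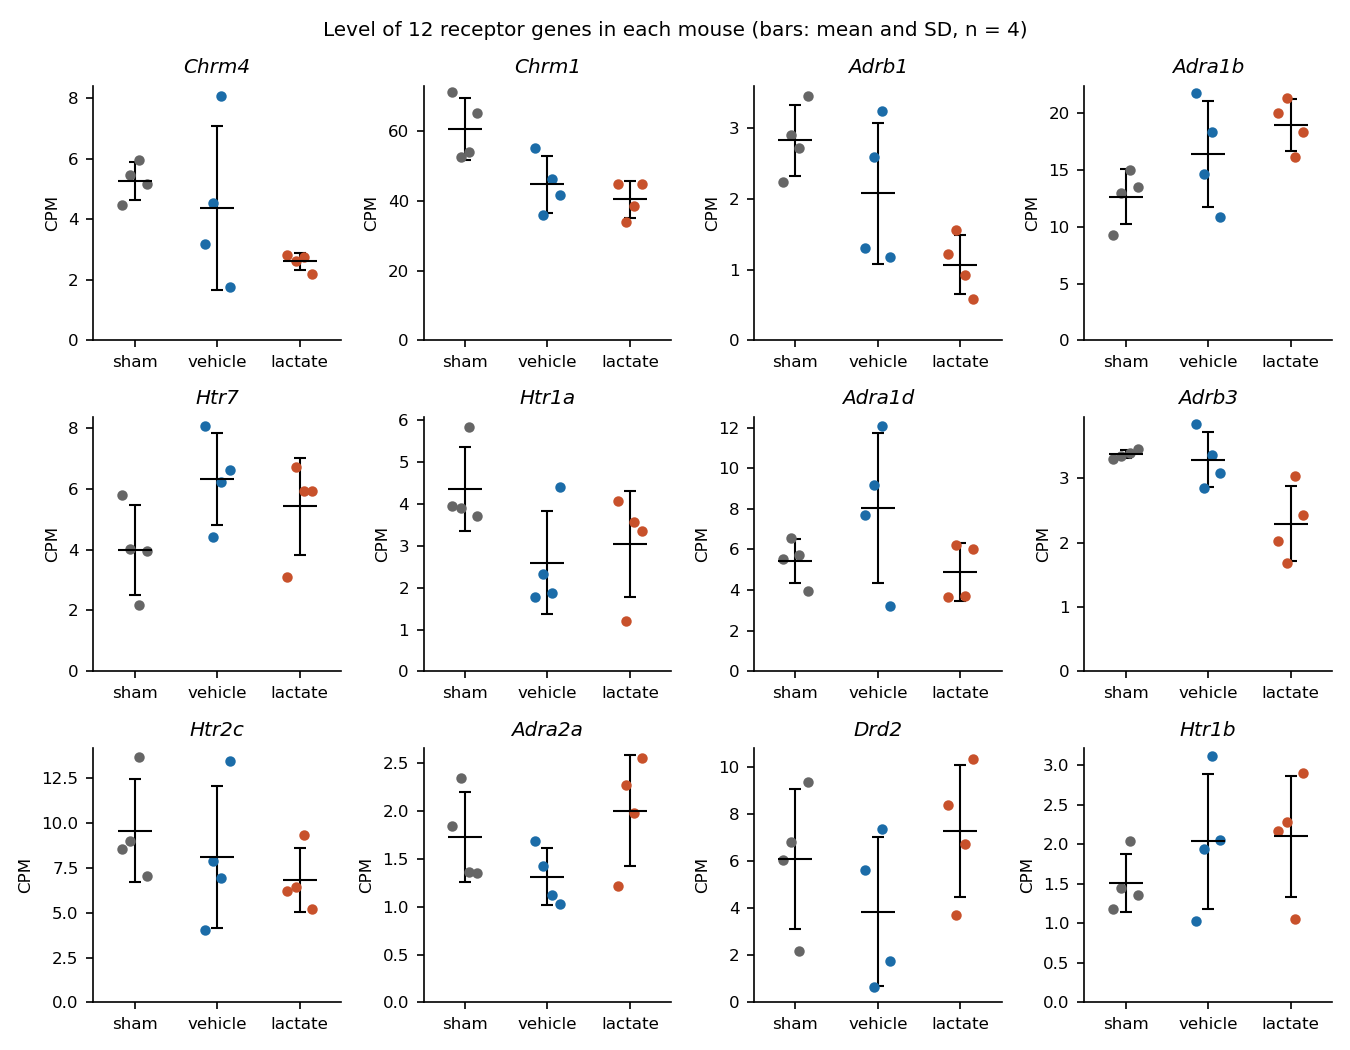
CPM in each mouse for the 12 receptor genes given per mouse, by group, with a point for each mouse and bars for the mean and SD (n = 4). The lactate mice are below all sham mice in the panels for Chrm4, Chrm1, Adrb1 and Adrb3 and above them in that for Adra1b, while the vehicle mice spread from 1.76 to 8.09 CPM for Chrm4.

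In counts, 1 of the 24 receptor genes tested rose and 2 fell in lactate mice against sham, which is 4.17% and 8.33%, beside 11.9% higher and 5.65% lower among all 17262 genes tested. At an adjusted P under 0.05 and a fold of at least 1.5, the same 3 genes were called, beside 7.88% higher and 2.52% lower among all genes. The median difference of the 24 genes was -0.08 on the log2 scale, against -0.03 over all genes tested and -0.06 over the Ensembl genes tested. With 24 genes each share rests on 1 or 2 genes, so the values describe single receptors and not the family. In this comparison 4672 of all genes tested had an unadjusted P under 0.05 in edgeR. The share of all genes whose lactate mice lay apart from all sham mice was not computed, so such separation is a description only.

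In vehicle mice against sham, 1 receptor gene rose and 1 fell, both of them serotonin receptors, and neither had an adjusted P under 0.05. Htr7, a Gs-coupled serotonin receptor of thalamus, hippocampus and hypothalamus, was at 5.80, 4.01, 2.17 and 3.95 CPM in sham mice 1 to 4 and at 8.05, 4.40, 6.22 and 6.60 CPM in vehicle mice 1 to 4. Vehicle mouse 2 lay within the sham range, and the other vehicle mice lay above it. The difference was 0.71 on the log2 scale (SE 0.30), a 1.63-fold higher level, with adjusted P = 0.317 in edgeR (0.255 to 0.556 over the alternatives). The call was lost without sham mouse 2 (0.73), 3 (0.50) or 4 (0.71) and without vehicle mouse 1 (0.56) or 4 (0.69), all on the log2 scale. In lactate mice Htr7 was at 3.11, 6.71, 5.93 and 5.91 CPM, with a difference from sham of 0.48 (SE 0.30, adjusted P = 0.343, edgeR), which was called without lactate mouse 1.

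Htr1a encodes the Gi/o-coupled serotonin 1A receptor, which serotonin neurons carry as an autoreceptor and hippocampal and cortical neurons carry as a target. It was at 3.96, 3.90, 5.84 and 3.70 CPM in sham mice and at 1.78, 2.33, 1.87 and 4.40 CPM in vehicle mice. Vehicle mice 1 to 3 were below all sham mice, while vehicle mouse 4 was within their range. The difference was -0.73 on the log2 scale (SE 0.33), with adjusted P = 0.353 in edgeR (0.136 to 0.619 over the alternatives). Of the fits without 1 mouse, only that without vehicle mouse 4 kept the call (-1.08). The difference ranged from -0.56 without sham mouse 3 to -0.79 without sham mouse 4 in the others. In lactate mice the gene was at 4.06, 1.20, 3.56 and 3.36 CPM, of which only mouse 1 reached the sham range, with a difference of -0.48 (SE 0.33, adjusted P = 0.372, edgeR).

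The called share in vehicle mice was 4.17% in each direction, beside 6.50% higher and 3.01% lower among all 17019 genes tested. At an adjusted P under 0.05, 0 of the 24 receptor genes were called by edgeR and 0 by DESeq2, 3 had an unadjusted P under 0.05, and among all genes 1.29% were called higher and 0.182% lower. The median difference of the 24 genes was -0.09 on the log2 scale, against 0.0031 over all genes tested.

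**Figure D2:**
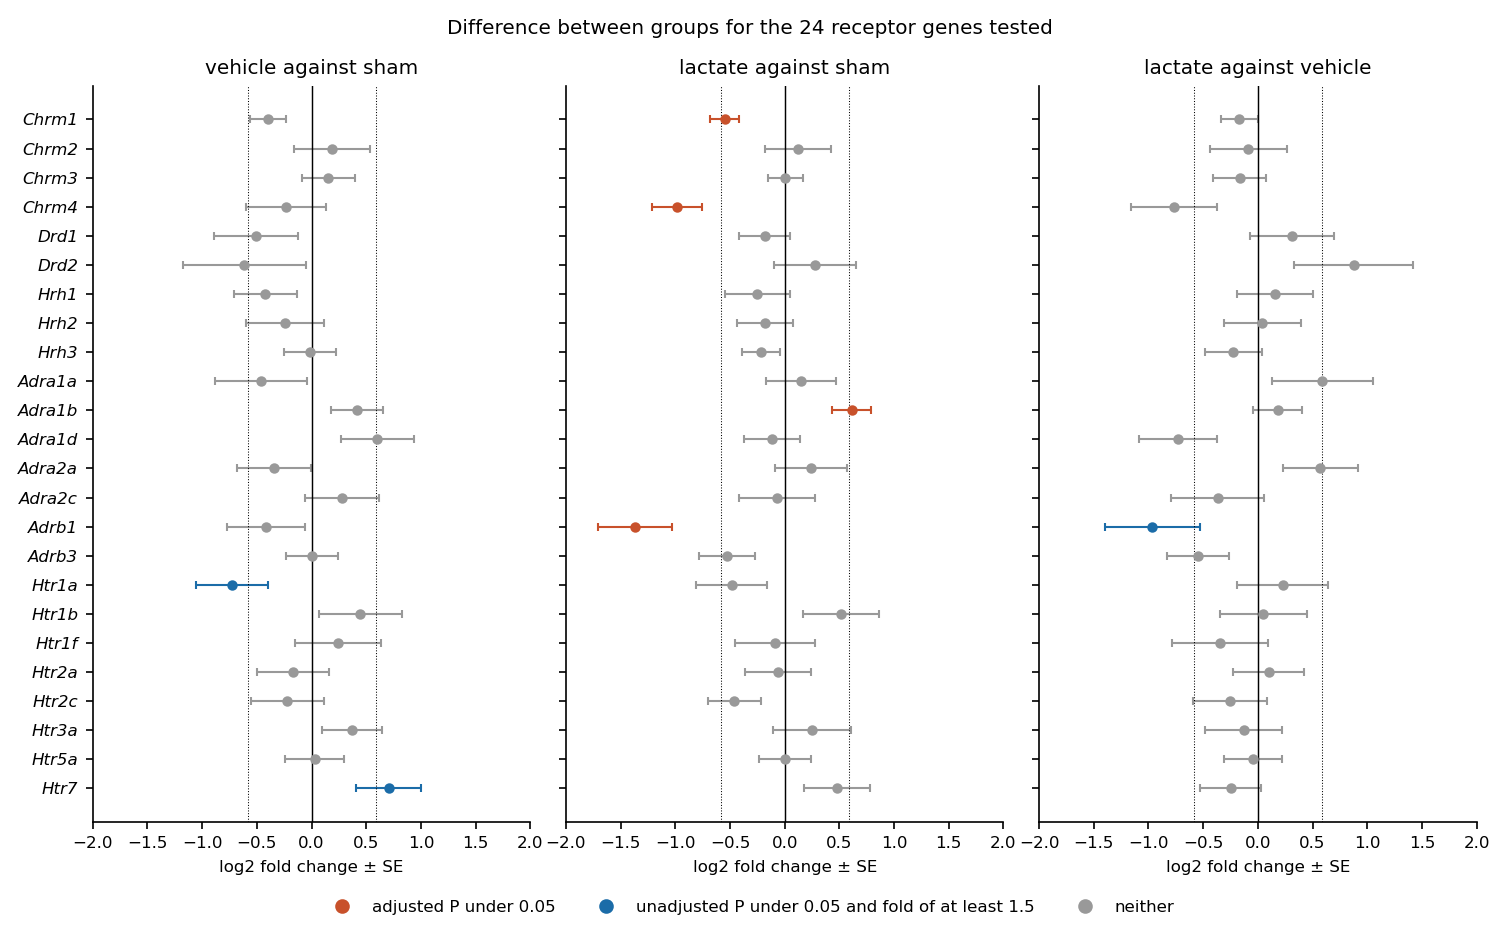
Difference between groups (log2 fold change, with bars for the SE) for the 24 receptor genes tested, by comparison, 4 mice in each group. Dotted lines stand at a 1.5-fold change, orange points have an adjusted P under 0.05 (Chrm4, Chrm1, Adrb1 and Adra1b, in lactate against sham only), and blue points met the unadjusted limits.

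Against vehicle mice, lactate mice differed in 1 receptor gene. Adrb1 was at 1.31, 2.59, 3.24 and 1.17 CPM in vehicle mice, of which mice 1 and 4 lay within the lactate range of 0.580 to 1.56 CPM. The difference was -0.96 on the log2 scale (SE 0.44), with adjusted P = 0.559 in edgeR (0.382 to 0.780 over the alternatives). The call was lost without vehicle mouse 2 (-0.84) or 3 (-0.68), without lactate mouse 1 (-1.03), 3 (-0.90) or 4 (-0.75), with the DESeq2 Wald test (-0.97), with only Ensembl genes (-0.92), with the replicate number as a block (-0.92) and without vehicle mice 2 and 4 (-1.07). It held in 7 of 16 alternatives. No receptor gene was called higher, beside 3.76% higher and 2.47% lower among all 17419 genes tested. At an adjusted P under 0.05, 0 receptor genes were called by edgeR and 0 by DESeq2, and 1 had an unadjusted P under 0.05. Among all genes edgeR called 0% higher and 0.00574% lower at that limit, while 1540 genes had an unadjusted P under 0.05 and DESeq2 called 50 genes higher and 9 lower.

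Chrm4 in vehicle mice spread over the range of both other groups, at 3.18, 4.53, 8.09 and 1.76 CPM in mice 1 to 4. Only vehicle mouse 4 was below the lactate mice. The difference between lactate and vehicle was -0.77 on the log2 scale (SE 0.40, adjusted P = 0.600, edgeR), and that between vehicle and sham was -0.23 (SE 0.37, adjusted P = 0.840, edgeR). Without vehicle mouse 4 the difference between lactate and vehicle was -1.02, and without vehicle mice 2 and 4 it was -1.10, both of them calls. Without vehicle mouse 3 it was -0.31. With all 12 mice in one fit it was called as well (-0.77). A difference that passed against sham in one group and not in the other was not thereby shown to differ between the groups, and the direct comparison of lactate with vehicle is the test of that.

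Within the vehicle group, both dopamine receptor genes were low in the mice with few striatal markers. Drd1 and Drd2 mark the direct-pathway and indirect-pathway projection neurons of the striatum. Drd1 was at 16.5, 12.5, 14.5 and 25.9 CPM in sham mice, 13.6, 4.40, 21.4 and 8.07 CPM in vehicle mice, and 13.9, 11.6, 14.2 and 20.1 CPM in lactate mice. Drd2 was at 6.07, 6.80, 2.17 and 9.37 CPM in sham mice, 5.62, 0.648, 7.34 and 1.76 CPM in vehicle mice, and 8.38, 3.71, 6.72 and 10.3 CPM in lactate mice. Vehicle mice 2 and 4, which had the lowest summed striatal markers of the 12 mice (314 and 344 CPM), also had the lowest Drd1 and Drd2 of all mice. Rgs9, a striatal regulator of G protein signalling, was at 10.2 and 11.0 CPM in these mice against 18.6 to 73.7 CPM in the others. Without Ppp1r1b in the sum, vehicle mouse 2 remained lowest at 171 CPM. Vehicle mouse 4, at 227.3 CPM, then lay just above sham mouse 3, at 226.7 CPM. Vehicle mouse 3, with 939 CPM of striatal markers, had the highest Drd1 and Drd2 of its group. Within each of the 3 groups the 4 mice stood in the same order by Drd2 as by the marker sum. Drd1 had that order in vehicle mice. In lactate mice Drd1 was lowest at the lowest sum and highest at the highest, with the other mice in reverse order. The order of the lactate mice depended on Ppp1r1b. Without that gene their sums were 400, 355, 445 and 463 CPM, an order that Drd1 followed and Drd2 did not. In sham mice, mouse 3 had the lowest marker sum (461 CPM) but not the lowest Drd1. Sham mouse 2 (704 CPM of markers) had the lowest Drd1 of its group. The mean Drd1 of lactate mice, 14.96 ± 3.59 CPM, was below the 17.4 ± 5.93 CPM of sham mice (SD, n = 4). The marker sums of lactate mice, with Ppp1r1b included, were higher than those of sham mice.

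Neither dopamine receptor met the limits in a comparison of all 8 mice without a block. Drd1 differed from sham by -0.51 in vehicle mice (SE 0.39, adjusted P = 0.612, edgeR) and by -0.18 in lactate mice (SE 0.23, adjusted P = 0.669, edgeR). Without vehicle mouse 3, Drd1 was called lower in vehicle against sham. Drd2 differed from sham by -0.62 in vehicle mice (SE 0.56, adjusted P = 0.687, edgeR) and by 0.27 in lactate mice (SE 0.38, adjusted P = 0.694, edgeR). Between lactate and vehicle the difference in Drd2 was 0.88 (SE 0.55, adjusted P = 0.668, edgeR), and 0.16 without vehicle mice 2 and 4. Those mice were left out after their markers were seen and had the lowest Drd2 of all mice. Leaving them out had to shrink the difference, so that fit cannot tell what lay behind it. The difference in Drd2 was called at 1.35 without vehicle mouse 3 and at 1.14 with the replicate number as a block, with adjusted P = 0.503 and 0.694 (edgeR). The part of the striatal share in the Drd1 and Drd2 values was not tested.

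The lower Chrm4 of lactate mice did not come with lower striatal markers. Their 8 markers summed to 799 CPM or above, against at most 750 CPM in sham mice, but that separation was due to 1 gene. Without Ppp1r1b, the other 7 markers summed to 227 to 450 CPM in sham and 355 to 463 CPM in lactate mice, so that the groups overlapped. Ppp1r1b, which encodes the striatal phosphoprotein DARPP-32, rose in lactate mice against sham, from 287 ± 44.7 to 448 ± 51.8 CPM (SD, n = 4; 0.67 on the log2 scale, SE 0.13, adjusted P = 0.00564, edgeR). The part of the striatal share in the Chrm4 difference was not tested.

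**Figure D3:**
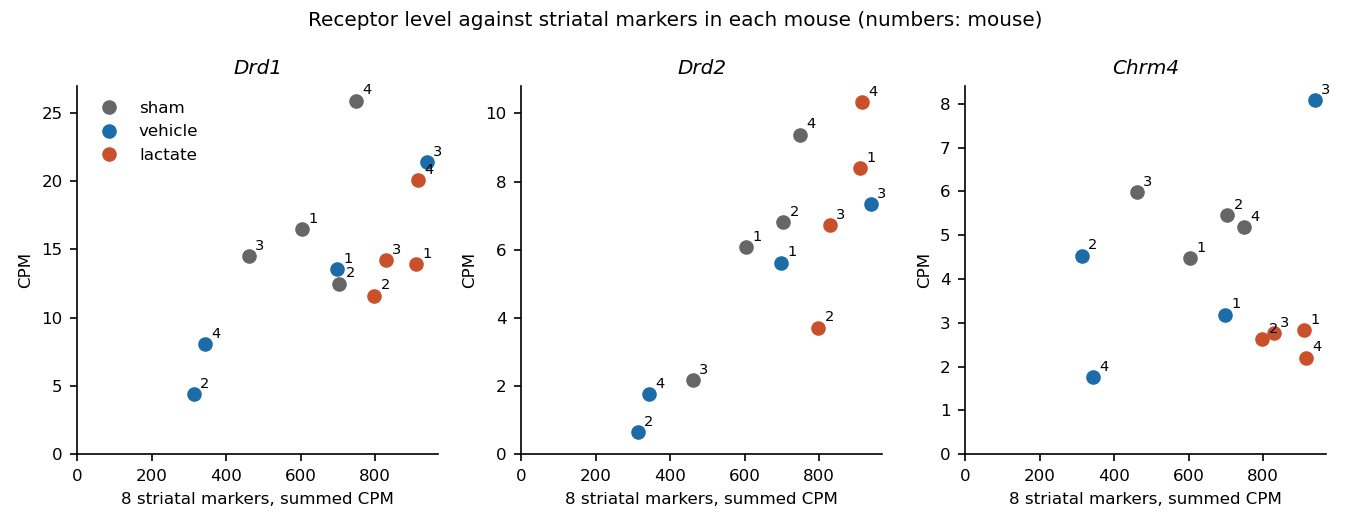
CPM of Drd1, Drd2 and Chrm4 in each mouse against the summed CPM of 8 striatal projection neuron markers, with the mouse number beside each point. Vehicle mice 2 and 4 sit at the lower left for Drd1 and Drd2, and the 4 lactate mice sit at the right with Chrm4 at 2.20 to 2.84 CPM.

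Among the other adrenergic receptors, Adra1d, a Gq-coupled alpha-1 receptor of cortex and hippocampus, had its highest values in vehicle mice. It was at 5.54, 6.58, 5.70 and 3.95 CPM in sham, 7.68, 9.19, 12.1 and 3.23 CPM in vehicle, and 3.65, 6.23, 3.69 and 6.03 CPM in lactate mice. Vehicle mice 1 to 3 were above all mice of the other groups and vehicle mouse 4 was below all of them. The difference was 0.60 for vehicle against sham (SE 0.33, adjusted P = 0.463, edgeR) and -0.73 for lactate against vehicle (SE 0.36, adjusted P = 0.582, edgeR). Without vehicle mouse 4 these were 0.86 and -0.98, both calls. Of the 16 alternatives, 14 and 12 left Adra1d uncalled in these comparisons. Other calls included 0.90 for vehicle against sham without vehicle mice 2 and 4, and -0.76 for lactate against vehicle with no filter on low counts. Adrb3, the beta-3 receptor best known from fat tissue, was at 3.30, 3.34, 3.40 and 3.45 CPM in sham, 3.84, 2.85, 3.36 and 3.08 CPM in vehicle, and 2.03, 1.68, 3.03 and 2.43 CPM in lactate mice. All lactate mice were below all sham mice, with a difference of -0.53 (SE 0.26, adjusted P = 0.211, edgeR). Without lactate mouse 3 it was -0.68 and called, and Adrb3 was then also called lower in lactate against vehicle mice.

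Adra2a, the Gi/o-coupled autoreceptor of noradrenaline neurons that cortical neurons also carry, was at 1.85, 2.34, 1.36 and 1.36 CPM in sham, 1.69, 1.42, 1.12 and 1.03 CPM in vehicle, and 1.22, 2.28, 1.98 and 2.55 CPM in lactate mice. The groups overlapped, with differences of -0.34 for vehicle against sham (SE 0.34), 0.24 for lactate against sham (SE 0.33) and 0.57 for lactate against vehicle (SE 0.34, adjusted P = 0.656, edgeR). Of the remaining tested adrenergic genes, Adra2c averaged 3.07 ± 0.618 CPM in sham, 3.60 ± 1.72 CPM in vehicle and 2.86 ± 1.57 CPM in lactate mice (SD, n = 4). Adra1a averaged 2.59 ± 0.581, 1.79 ± 1.12 and 2.80 ± 1.09 CPM in the same order (SD, n = 4). Neither met the limits in any comparison. A P value above the limit does not show that the groups were alike, and with SEs of this size differences under about the fold limit could not be told from the spread.

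Among the other serotonin receptors, Htr2c, the Gq-coupled receptor that the choroid plexus expresses most strongly, was at 8.57, 9.03, 13.7 and 7.03 CPM in sham, 4.03, 7.90, 6.97 and 13.5 CPM in vehicle, and 6.22, 6.47, 9.36 and 5.22 CPM in lactate mice. Vehicle mouse 2, the mouse with choroid plexus markers at 1840 CPM in sum, was within the range of the other mice. The difference was -0.46 for lactate against sham (SE 0.24, adjusted P = 0.250, edgeR), and without lactate mouse 3 it was -0.64 and called. Htr1b, a Gi/o-coupled receptor of axon terminals, was at 1.19, 1.45, 2.04 and 1.36 CPM in sham, 1.03, 1.94, 3.11 and 2.05 CPM in vehicle, and 2.16, 2.28, 1.05 and 2.90 CPM in lactate mice. Only part of each ischemic group was above the sham mice, with differences of 0.45 for vehicle (SE 0.38) and 0.51 for lactate (SE 0.35, adjusted P = 0.374, edgeR), and the latter was 0.74 and called without lactate mouse 3. Htr2a, the Gq-coupled receptor of cortical pyramidal neurons at which classical hallucinogens act, averaged 3.39 ± 1.03 CPM in sham, 2.97 ± 0.964 CPM in vehicle and 3.20 ± 0.942 CPM in lactate mice (SD, n = 4), with differences from sham of -0.17 (SE 0.33) and -0.06 (SE 0.30). The ion channel gene Htr3a differed from sham by 0.37 (SE 0.27) and 0.25 (SE 0.36), Htr1f by 0.24 (SE 0.40) and -0.09 (SE 0.37), and Htr5a by 0.03 (SE 0.27) and 0.00072 (SE 0.24) in vehicle and lactate mice on the log2 scale.

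The other muscarinic receptors differed little between groups. Chrm3, a Gq-coupled receptor like Chrm1, averaged 13.4 ± 1.89 CPM in sham, 14.5 ± 5.02 CPM in vehicle and 13.2 ± 1.10 CPM in lactate mice (SD, n = 4), with a difference of 0.0063 between lactate and sham (SE 0.16, adjusted P = 0.985, edgeR). Chrm2, a Gi/o-coupled receptor like Chrm4 and an autoreceptor of cholinergic neurons, averaged 2.23 ± 0.547, 2.45 ± 0.954 and 2.38 ± 0.610 CPM in the same order (SD, n = 4), with a difference of 0.12 between lactate and sham (SE 0.30, adjusted P = 0.844, edgeR). Whether the difference in Chrm4 and Chrm1 was itself larger than that in Chrm2 and Chrm3 was not tested.

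None of the 3 histamine receptor genes tested met the limits of a call in edgeR, and none had an unadjusted P under 0.05 in any of the 3 comparisons. Hrh1, the Gq-coupled receptor at which sedating antihistamines act, averaged 10.8 ± 2.74 CPM in sham, 7.88 ± 3.27 CPM in vehicle and 8.85 ± 4.41 CPM in lactate mice (SD, n = 4). Lactate mouse 2 was at 15.4 CPM, while the other lactate mice were at 6.36 to 6.99 CPM. The difference from sham was -0.42 in vehicle mice (SE 0.29, adjusted P = 0.560, edgeR) and -0.25 in lactate mice (SE 0.29, adjusted P = 0.636, edgeR). Hrh1 was called lower in vehicle mice without vehicle mouse 3 and in lactate mice without lactate mouse 2. Hrh3, the autoreceptor of histamine neurons, averaged 12.8 ± 1.00, 12.3 ± 4.39 and 10.8 ± 2.00 CPM, and Hrh2, which is coupled to Gs, 3.48 ± 0.810, 2.85 ± 1.36 and 3.00 ± 0.414 CPM in sham, vehicle and lactate mice (SD, n = 4).

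**Figure D4:**
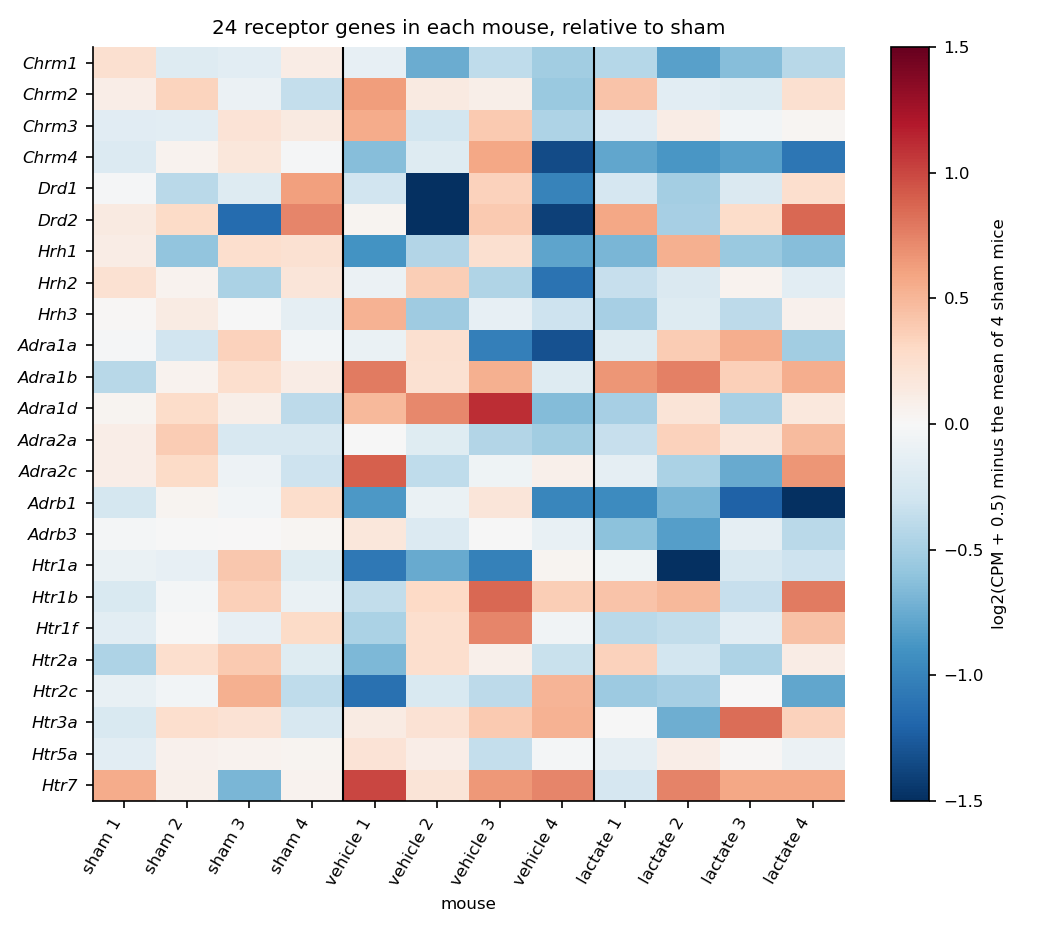
Level of each of the 24 receptor genes tested in each of the 12 mice, as log2(CPM + 0.5) minus the mean of the 4 sham mice, with colours that end at 1.5 above (red) and below (blue). The rows for Chrm4 and Adrb1 are blue in all 4 lactate mice, that for Adra1b is red in all 4, and Drd1 and Drd2 are darkest in vehicle mice 2 and 4.

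Below the filter on low counts, Drd4, Htr2b and Chrm5 were called in a comparison with sham once that filter was removed. Without it, a gene entered the fit if any mouse compared had a count. Htr2b and Chrm5 thus entered only through the ischemic mice, and the share of all genes called in that fit is not given here. These calls therefore describe where the few counts lay and do not stand as a test of a change. Drd4 encodes the D4 dopamine receptor. It had 0, 0, 2 and 1 counts in sham mice 1 to 4, 13, 5, 1 and 5 counts in vehicle mice, and 1, 16, 11 and 5 counts in lactate mice. All sham mice were at or under 3 counts, as were vehicle mouse 3 and lactate mouse 1, while the other 6 ischemic mice held 5 to 16 counts. Without the filter, edgeR gave adjusted P = 0.195 for vehicle against sham and adjusted P = 0.0279 for lactate against sham. No fold is given, since the sham level was at the limit of detection. Htr2b, a Gq-coupled serotonin receptor that lies within Psmd1 on the opposite strand, had 0 counts in all sham mice, 2, 0, 2 and 3 in vehicle mice, and 1, 3, 2 and 1 in lactate mice (adjusted P = 0.274 and adjusted P = 0.0830 against sham, edgeR). Chrm5, the M5 muscarinic receptor of dopamine neurons, had 0 counts in all sham mice, 0, 0, 1 and 2 in vehicle mice, and 1, 2, 0 and 2 in lactate mice (adjusted P = 0.495 and adjusted P = 0.157 against sham, edgeR), and was called in lactate mice only. Both genes were at or under 3 counts in every mouse. The D5 receptor gene Drd5 had at most 9 counts and Htr6, a Gs-coupled receptor of striatal neurons, was at 0.11 to 1.44 CPM.

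The genes around these receptors, in 12 lists of transmitter synthesis, transport and breakdown, G proteins and their effectors, held 118 genes. In each comparison 76 were tested, but not the same 76, since Adcy4, Plcb2 and Pde4c each passed the filter in a different comparison only. In vehicle mice against sham 4 rose and 1 fell, in lactate mice against sham 5 rose and 4 fell, and between lactate and vehicle 1 was higher and 2 lower. As shares of the 76 genes tested each time, these are 5.26% and 1.32%, 6.58% and 5.26%, and 1.32% and 2.63%. Each share was below or near that of all genes given above. With an adjusted P under 0.05, edgeR called 1 higher and 2 lower in lactate against sham, where DESeq2 called 5. In vehicle against sham edgeR called 0 and DESeq2 3 at that limit, with 9 genes at an unadjusted P under 0.05 by either tool. In lactate against vehicle both called 0, with 7 genes at an unadjusted P under 0.05 by edgeR and 8 by DESeq2. Without lactate mouse 1 the count between lactate and vehicle was 0 and without lactate mouse 4 it was 1, against 5 without lactate mouse 2, and without sham mouse 1 or 3 the count in lactate against sham was 5.

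Of the enzymes, Hnmt, histamine N-methyltransferase, which inactivates histamine in the brain, fell in lactate mice. It was at 28.0, 21.6, 29.6 and 28.2 CPM in sham, 17.0, 24.3, 16.6 and 18.0 CPM in vehicle, and 19.3, 11.5, 20.3 and 17.5 CPM in lactate mice. All lactate mice were below all sham mice, and the difference was -0.61 on the log2 scale (SE 0.18, adjusted P = 0.0393, edgeR). Vehicle mice also differed from sham, by -0.46 (SE 0.18, adjusted P = 0.275, edgeR). Between lactate and vehicle the Hnmt difference was -0.17 (SE 0.22, adjusted P = 0.851, edgeR). Ddc, the decarboxylase that makes dopamine and serotonin, rose in lactate mice by 0.70 (SE 0.29, adjusted P = 0.144, edgeR). Its difference was 0.18 for vehicle against sham (SE 0.29) and 0.51 for lactate against vehicle (SE 0.32, adjusted P = 0.669, edgeR). The vesicular monoamine transporter gene Slc18a2 was at 0.123 to 1.39 CPM in the 12 mice, and the serotonin transporter gene Slc6a4 had at most 1 count in any mouse.

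Downstream of the receptors, Rgs3, which speeds the shutting off of Gi and Gq signals, was at 55.1, 49.5, 45.8 and 41.3 CPM in sham and 36.5, 29.8, 26.9 and 26.9 CPM in lactate mice. The groups did not overlap, and the difference was -0.64 on the log2 scale (SE 0.14, adjusted P = 0.0104, edgeR). For Rgs3 the difference was -0.28 for vehicle against sham (SE 0.21) and -0.38 for lactate against vehicle (SE 0.22, adjusted P = 0.636, edgeR). Rgs2 and Rgs16, from the same family, rose in both ischemic groups. For Rgs2 the difference from sham was 1.11 in vehicle (SE 0.36, adjusted P = 0.186, edgeR) and 0.65 in lactate mice (SE 0.29, adjusted P = 0.173, edgeR). The highest Rgs2 values were 120 CPM in vehicle mouse 3 and 78.9 CPM in lactate mouse 2, against 24.1 to 43.5 CPM in all other mice. For Rgs16 it was 1.08 in vehicle (SE 0.28, adjusted P = 0.0929, edgeR) and 0.97 in lactate mice (SE 0.31, adjusted P = 0.0551, edgeR). Arrb2, which encodes beta-arrestin 2, rose against sham by 0.63 in lactate mice (SE 0.23, adjusted P = 0.0924, edgeR). In vehicle mice its difference from sham was 0.53 (SE 0.25, adjusted P = 0.359, edgeR), and lactate differed from vehicle by 0.078 (SE 0.17). The phosphodiesterase gene Pde4b rose in vehicle mice by 0.77 (SE 0.27, adjusted P = 0.222, edgeR), and Pde4d was lower in lactate mice, by -0.86 against sham (SE 0.28, adjusted P = 0.0633, edgeR) and by -0.76 against vehicle (SE 0.32, adjusted P = 0.541, edgeR).

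Other cell types also differed between the groups. Markers of infiltrating leukocytes summed to 0.557 to 2.37 CPM in sham, 9.68 to 68.8 CPM in vehicle and 17.2 to 36.9 CPM in lactate mice. Summed astrocyte markers were at 592 to 889 CPM in sham, 794 to 871 CPM in vehicle and 960 to 1014 CPM in lactate mice, with the separation of the lactate mice due to Gfap, a marker of reactive astrocytes, which rose from 52.4 ± 16.4 CPM in sham to 159 ± 76.2 CPM in vehicle and 283 ± 37.7 CPM in lactate mice (SD, n = 4). Without Gfap the other 5 astrocyte markers summed to 537 to 816, 616 to 747 and 626 to 767 CPM. Microglia markers summed to 202 to 215 CPM in sham, 118 to 195 CPM in vehicle and 185 to 206 CPM in lactate mice, endothelial markers to 120 to 130, 120 to 160 and 164 to 206 CPM, and those of pericytes and smooth muscle, which carry adrenergic receptors, at 44.4 to 55.8, 31.0 to 47.3 and 35.8 to 41.0 CPM. Of the endothelial markers, only Ly6c1 separated lactate from sham mice, at 74.7 CPM on average in sham and 133 CPM in lactate mice. Cldn5, Pecam1 and Flt1 overlapped between these groups, and mean Cldn5 was lower, at 23.9 CPM in sham and 19.1 CPM in lactate mice. Of the microglia markers, P2ry12 averaged 45.8, 22.2 and 20.9 CPM in sham, vehicle and lactate mice. In lactate against sham, 3 of the 5 microglia markers had positive differences. The part of these cell types in the receptor differences was not tested. Counts of Adra1d, Adrb3, Chrm1, Chrm2, Chrm3, Hrh2, Hrh3, Htr1b and Htr3a may include reads of genes that overlap them on the opposite strand, since whether the counting used strand is not given in the sources used here.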

How the data were processed

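Brain RNA of 4 sham, 4 vehicle and 4 lactate mice was analysed. Groups and mouse numbers follow the labels. The authors made the deposited count values from full-length nanopore cDNA reads mapped with minimap2. How reads were assigned to genes, and the annotation release, are not given in the sources used here. The submitters' processing notes name GRCm38 and DESeq 1.10.1. For the deposited CPM values, the authors divided each count by the total of its mouse. The authors' own P values, log2 fold changes and regulation flags are also in the table and were not used. No gene is given on 4 lines, which carry no counts and were skipped, and 0 per-sample columns were left out.

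The count test was the quasi-likelihood test of edgeR 4.0.16 in R 4.3.3, with TMM factors, fitted over all genes that reached a CPM of 1 in 4 or more of the 8 mice of the groups compared. A call needed an unadjusted P under 0.05 together with a 1.5-fold or larger change. P values were adjusted by Benjamini-Hochberg over all genes tested. Alternatives used DESeq2 1.42.0, other size factors and filters, all 12 mice, Ensembl genes only, a replicate block, and leaving out mice. Tables and plots were made with Python 3.11.15, numpy 2.4.6, pandas 2.3.3 and matplotlib 3.10.9. The fit was tested on simulated data. Gene positions are those of GENCODE on GRCm38.

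Given per mouse were the genes past either limit in any comparison and then those with the smallest P, 12 in all, and other genes are given by group means or ranges, apart from Drd1, Drd4, Htr2b, Chrm5 and some pathway genes. Drd4, Htr2b and Chrm5 were chosen after their values were seen. The members and lists were chosen with earlier results of these data known. Total counts ranged from 6815920 to 10677224. Values of 2 genes are not reported here.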

Additional observations from a re-analysis of the deposited data

Results flagged for a closer look

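Within the groups of 4 mice, 3 of 72 sets of values (24 receptor genes in 3 groups) had 1 mouse far from the other 3 by Dixon's criterion, where chance gives about 1 in 20. Hrh1 was at 15.448 CPM in lactate mouse 2 and at 6.36 to 6.99 CPM in the other lactate mice. Htr1a was at 5.8397 CPM in sham mouse 3 and at 3.70 to 3.96 CPM in the other sham mice. Htr5a was at 2.5055 CPM in sham mouse 1 and at 2.96 to 3.01 CPM in the other sham mice.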

How the results depend on the processing

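For vehicle against sham, 2 receptor genes were called. The count was 0 with adjusted P values, 4 with no filter on low counts, 1 with all 12 mice in one fit, 1 with only Ensembl genes and 1 with the replicate block. It was 4 without vehicle mice 2 and 4, an alternative added after the markers were seen, and 0 to 3 without 1 mouse at a time. For lactate against sham, 3 were called, with 6 under no filter and 2 to 6 without 1 mouse. For lactate against vehicle, 1 was called, with 0 under adjusted P values, 0 with the DESeq2 Wald test, 2 with no filter, 3 with all 12 mice, 0 with only Ensembl genes, 2 without vehicle mice 2 and 4, and 0 to 3 without 1 mouse. Under the replicate block, Drd2 was called in place of Adrb1 in that comparison, and Chrm4, Adrb1 and Adra1b kept their calls in lactate against sham. The correlation of deviations between mice with the same number ranged from -0.140 to 0.154, so the numbers do not pair the mice. Of the pathway genes, 5, 9 and 3 were called in the order above. With adjusted P values these were 0, 3 and 0. With no filter they were 16 in lactate against sham and 5 in lactate against vehicle, and without vehicle mice 2 and 4 they were 9 in vehicle against sham and 9 in lactate against vehicle. Without 1 mouse they ranged from 4 to 7, from 5 to 9 and from 0 to 5. These alternatives for the pathway genes were added after the data had been seen.

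Of the 12 named receptor genes, for which the alternatives were run gene by gene, those that changed sign were not called in the comparison concerned. For vehicle against sham, Adrb3 was at -0.0042 with no filter, -0.00040 with the filter at a CPM of 0.5, -0.0064 with the replicate block, and -0.087 to 0.071 without 1 mouse. Chrm4 was at 0.12 and Drd2 at 0.13 without vehicle mice 2 and 4, Chrm4 at -0.68 to 0.026 and Htr2c at -0.57 to 0.014 without 1 mouse. For lactate against sham without 1 mouse, Adra1d was at -0.24 to 0.0061 and Drd2 at -0.0034 to 0.56. For lactate against vehicle, Adra1b was at -0.10 and Htr2c at 0.30 without vehicle mice 2 and 4, and without 1 mouse Htr2c was at -0.48 to 0.10 and Htr1b at -0.18 to 0.33. The cause of these changes was not tested. Depth limits the low genes most, since 3 counts stood for up to 0.440 CPM.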
